A study of Mus musculus with 15 samples.

Results

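Gene expression in cultured cells of 57SCLC, a mouse small cell lung carcinoma (SCLC) line, was compared with that in normal mouse lung. The comparison took 6 of the 15 samples of the series, namely the 57SCLC_cell triplicates, which were 3 flasks (A, B and C) of the one line at passage 11, and the 3 Lung samples (CT3, CT4 and CT5). All 55359 genes of the deposited matrix were considered, and 18467 of them were tested, those that reached 10 normalized counts in 3 or more of the 6 samples. The 57SCLC line was established from a lung tumor of a K5-QKO mouse. QKO animals carry floxed tumor suppressor alleles and a null Rbl1 gene, and Rb1, Rbl1 and Trp53 are among the genes ablated in their tumors. Recombination had been started in the airways by an adenovirus in which the keratin K5 promoter, active in basal cells, drives Cre (Ad-K5cre). In culture the line forms suspended aggregates of very small cells. The mice that received syngeneic allografts were QKO animals, and Lung was taken from their littermates. The genotype, sex and age of the Lung donors themselves are not given in the sources used here. For DNA genotyping the paper lists control lungs with floxed Rb1 and Trp53 alleles and a null Rbl1 gene. Whether these were the Lung samples is not stated. Because the flasks were of 1 line, the p-values measure the spread between flasks and between lungs, not between tumors. Tumor against normal, culture against tissue, and 1 cell type against a mixed organ cannot be told apart in this design.

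SCLC is a fast-growing neuroendocrine cancer that almost always lacks functional RB and p53. Neuroendocrine cells store peptide hormones with granin proteins in dense-core vesicles and release them through the same machinery that neurons use at synapses. RB and its relatives p107 (encoded by Rbl1) and p130 (encoded by Rbl2) hold E2F transcription factors in check, and E2F target genes drive DNA replication and mitosis when that brake is lost. The normal lung is mostly made of alveolar epithelium, capillary endothelium, fibroblasts and immune cells, most of them not dividing, with a small number of pulmonary neuroendocrine cells in the airways.

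The files held from 37368046 to 44876572 counted reads per flask and from 23471321 to 35265695 per Lung sample. Flask C stood apart from the other two. Of 13297 genes with at least 50 normalized counts in a flask, 408 were over 2-fold higher and 38 over 2-fold lower in C than in both A and B, whereas 1 gene was over 2-fold apart between A and B. Reads on Rn18s-rs5, a ribosomal RNA gene, made up 4.63% of the reads of flask C, 1.08% of A, 1.15% of B and from 1.82% to 2.04% in Lung. The difference between A and B was above counting error but far below that between lungs (chi-square per degree of freedom 2.80, against 27.2 to 28.4 between pairs of lungs). These flasks therefore gave less information on biological spread than their number implies. The same measure was 143.5 between A and C and 126.7 between B and C, above every pair of lungs. Rn18s-rs5 is included in these values, and they were not computed without it. Some genes that most cells use, among them B2m, Tk1, Cdt1, Gins2 and Cox4i1, were listed at 0 in all 6 samples, as were 4114 of the 21627 protein-coding genes of the matrix. A gene listed at 0 was therefore not read as unexpressed.

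With an adjusted p no greater than 0.01 and a 2-fold change or more, 3901 genes (21.1% of those tested) were higher in 57SCLC_cell than in Lung and 6032 (32.7%) were lower. Without flask C, and with the filter in 2 samples, the numbers were 3876 (20.4%) and 6346 (33.4%) of 18985 genes. The decreases were larger than the increases, the log2 fold changes having medians of -3.81 for the lower genes and 2.15 for the higher ones, and 3632 genes were over 8-fold lower against 1383 over 8-fold higher. The median over all genes tested was -0.12. Since 53.8% of the genes tested changed, the numbers of each gene group below are to be read against these shares. Normalized counts are given per sample in the order A, B and C for the flasks and CT3, CT4 and CT5 for the lungs, and log2 fold changes as estimate ± standard error.

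The deleted suppressor genes were looked at first, but their total reads could not check the labels. Rb1 had 229, 236 and 777 normalized counts in the flasks and 297, 247 and 329 in Lung, so that the groups overlapped (log2 fold change 0.26 ± 0.45, adjusted p = 0.601). Rb1 was thus not lower in total reads, with a value in flask C above every other sample, and at -0.31 without flask C. Trp53, which encodes p53, was below Lung in every flask, at 1062, 1006 and 923 against 1536, 1356 and 1250.2, without reaching 2-fold (log2 fold change -0.47 ± 0.10, adjusted p = 0.00328). Rbl1 was higher, at 2730.2, 2747 and 3166 against 750.4, 868 and 872 (log2 fold change 1.79 ± 0.10, adjusted p = 1.05e-06). Reads over the whole gene do not show whether the deleted exons were present, and exon-level reads were not analysed here. Whether the Lung donors carried the null Rbl1 gene is not stated in the sources used here.

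Granins and prohormone-processing genes were the clearest neuroendocrine group in the flasks. Of 14 tested, 13 were higher than in Lung and 1 was lower, the median log2 fold change being 6.40. Chga, the gene of chromogranin A, the standard marker of neuroendocrine tumors, had 9885, 9737 and 8951 normalized counts in the flasks against 7.47, 11 and 1.17 in Lung (log2 fold change 10.62 ± 0.57, adjusted p = 1.02e-06). Lung CT5 had a single read. Chgb (6.22 ± 0.16), Scg2 (8.12 ± 0.33), Scg3 (5.62 ± 0.19), Scg5 (5.40 ± 0.22) and Vgf (7.15 ± 0.18), which encode other granin-family proteins or their chaperone, were also higher. Pam, whose enzyme amidates the ends of peptide hormones, was the exception, at 1902, 1853 and 2527 in the flasks and 8396, 8505 and 6893 in Lung (-1.93 ± 0.14).

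Peptide hormone genes were more selective. Calca, which encodes calcitonin and the peptide CGRP of pulmonary neuroendocrine cells, was read at 35267, 35302 and 43053 in the flasks and 14.2, 28.9 and 22.2 in Lung (log2 fold change 10.75 ± 0.23, adjusted p = 1.66e-08), which placed it among the 10 most highly read of the up-regulated genes. Of the 9 genes tested for neuropeptides and amine synthesis, 5 were higher, namely Calca, Calcb (2.68 ± 0.35), Pomc (1.88 ± 0.18), Ddc (4.73 ± 0.18), whose enzyme makes dopamine and serotonin, and Slc18a1 (3.04 ± 0.18), a vesicular amine transporter. Npy was read in Lung (137, 82.8 and 74.9) and had no read in any flask, so it was at least 177-fold lower, and Penk was at least 217-fold lower in the same way. Grp, the bombesin-like peptide of classical SCLC, was listed at 0 in all 6 samples.

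The genes of regulated exocytosis followed the granins, with 16 of 22 tested higher, 1 lower and a median of 4.09. Syp, the gene of synaptophysin, a vesicle membrane protein used with chromogranin in pathology, had 1074, 1033 and 949 counts against 61.3, 62.8 and 52.7 (log2 fold change 4.09 ± 0.13, adjusted p = 6.60e-08). Syn1 (4.44 ± 0.14), Snap25 (8.05 ± 0.46), which encodes a core fusion protein, and Stx1a (1.38 ± 0.08), which encodes its membrane partner, were higher, and the largest difference was that of Sv2b (8.29 ± 0.37). Cplx2, which encodes a clamp on vesicle fusion, was the most highly read, at 46742, 45193 and 35871 against 683, 702 and 682 (5.94 ± 0.11). Syn2 (0.71 ± 0.15) and Syn3 (-0.91 ± 0.28) did not pass the test, although Syn3 was called lower without flask C (-1.25), and Sv2c was lower (-2.59 ± 0.29).

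Neuronal RNA-binding and splicing genes were higher in 14 of 16 cases and lower in none, with a median of 5.20. Elavl3, whose protein stabilizes neuronal transcripts and which belongs to the Hu antigens of SCLC, went from 7.47, 1.99 and 3.51 in Lung to 14210.2, 13280.4 and 9004 in the flasks (log2 fold change 11.26 ± 0.37, adjusted p = 8.64e-08). Elavl2 (8.78 ± 0.63), Elavl4 (6.30 ± 0.18) and Celf3 (5.23 ± 0.17) were higher as well, and Nova1 only just so (1.00 ± 0.09; 0.98 without flask B and 0.93 without Lung CT4). Srrm4, whose protein drives neuronal exon inclusion and splices the repressor gene Rest, was read at 513, 492 and 1587 in the flasks against 1.49, 0 and 0 in Lung, a ratio of 1417 (95% counting interval 392 to 11708). Nova2 (-0.33 ± 0.09) and Rbfox1 (0.85 ± 0.79) did not pass the test.

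**Figure D1:**
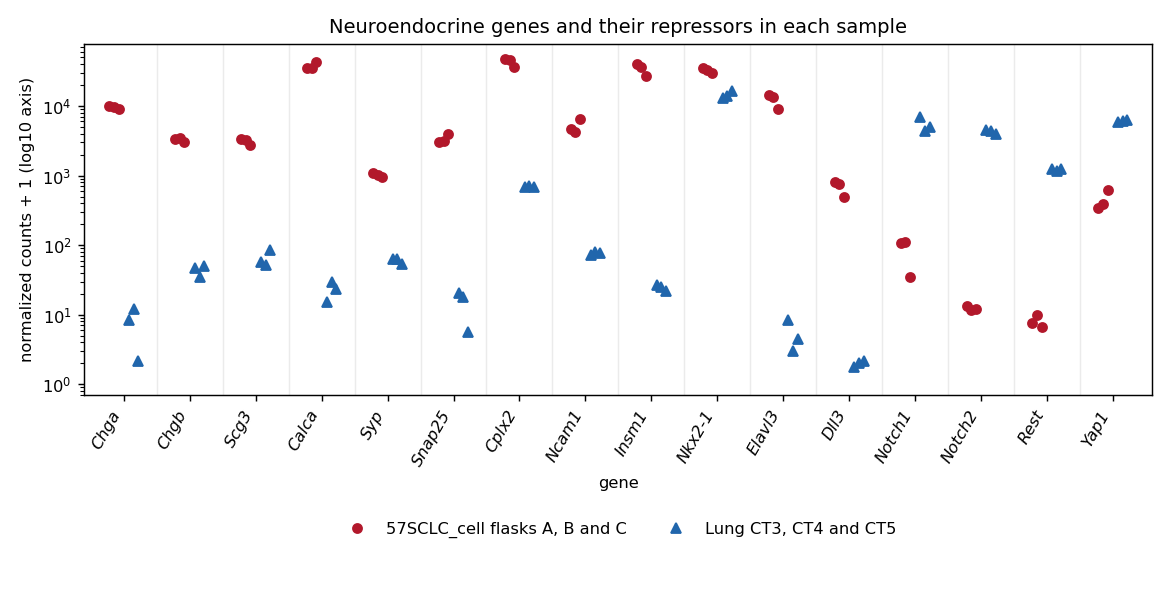
Normalized counts plus 1 on a log10 axis for 16 genes of the neuroendocrine program and its repressors, with one point per sample (circles, flasks A, B and C of 57SCLC_cell; triangles, Lung CT3, CT4 and CT5). Flasks lie above lungs for every gene but Rest, Notch1, Notch2 and Yap1, where they lie below. The groups do not overlap for any gene shown, as for 15406 of the 18467 genes tested.

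Neuroendocrine transcription factor genes were higher in 13 of 16 cases and lower in 2. Insm1, a zinc finger factor of neuroendocrine differentiation, was at 39944, 36474 and 26639 in the flasks and 26.2, 23.9 and 21.1 in Lung (log2 fold change 10.42 ± 0.16, adjusted p = 7.09e-09). The factors with the largest differences were Myt1 (10.59 ± 0.58), which represses non-neuronal genes, and Insm1, while Onecut2 (8.63 ± 0.36), Sox11 (6.15 ± 0.10) and Prox1 (5.75 ± 0.14) were intermediate. Nkx2-1, the lineage factor of lung and thyroid epithelium, was already highly read in Lung (12946, 14051 and 16406) and higher in the flasks (34869, 33031 and 29464; log2 fold change 1.17 ± 0.12, adjusted p = 4.78e-05), a call lost in a limma model of all 15 samples (adjusted p = 0.346). Nfib, which opens chromatin in metastatic SCLC, did not pass the test (-0.24 ± 0.17). Neurod1 and Sox2 were listed at 0 in all 6 samples. Both genes called against the list encode repressors of neuroendocrine identity or factors absent from neuroendocrine tumors, Rest (6.55, 9.05 and 5.73 against 1249, 1181 and 1238; -7.26 ± 0.20) and Yap1 (-3.80 ± 0.20).

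Ion channel and cytoskeleton genes divided. Of 20 voltage-gated channel genes, 14 were higher and 4 lower, with a median of 5.11. Cacna1a (5.23 ± 0.16), which encodes the pore of P/Q-type calcium channels, the target of antibodies in Lambert-Eaton syndrome, was higher. The other pores Cacna1d (-9.82 ± 0.35) and Cacna1e (-3.31 ± 0.37) and the sodium channel subunits Scn3a (-1.92 ± 0.37; -1.84 to -1.98 and not called without any 1 of the lungs and with the filter in 2 samples) and Scn3b (-10.95 ± 0.25) were lower. Of 17 neuronal cytoskeleton and axon genes, 13 were higher and 4 lower. Ina, an intermediate filament gene of neurons, went from 3.74, 0.997 and 1.17 in Lung to 8796, 8512 and 6478 in the flasks (log2 fold change 11.49 ± 0.34, adjusted p = 5.21e-08), and Stmn3, which encodes a tubulin-binding protein, also rose (8.08 ± 0.15). Mapt, the gene of tau (-3.88 ± 0.18), Stmn2 (-4.77 ± 0.29), Dpysl3 (-2.60 ± 0.08) and Gap43 (-5.95 ± 0.23) fell.

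Some genes were read in one group and at no more than 3 reads per sample in the other. Among genes that reached 50 normalized counts in every flask, 123 met this, 83 of them protein-coding, and 31 of the 123 had no read in Lung. Ttr, which encodes the thyroid hormone carrier transthyretin, had 2115, 2208 and 3566 counts and no read in Lung, at least 2801-fold higher. Chrnd, which encodes a subunit of the muscle acetylcholine receptor, had 2095, 2093 and 1693 and again no read, at least 2088-fold higher. Sez6, a neuronal surface protein gene (5548, 5331 and 5374 against 2.24, 0 and 1.17; 11.47 ± 0.40), and the homeobox genes Hoxb9 (3518, 3288 and 3866 against 0, 0 and 1.17) and En2 (4528, 4297 and 2943 against 1.49, 0.997 and 0) were of the same kind. The largest log2 fold change of the up-regulated genes with that level was that of Clca3b, of a family of secreted calcium-dependent regulators of chloride channels, at 13494, 13224 and 6798 against 5.98, 0 and 0 (log2 fold change 12.45 ± 0.74, adjusted p = 1.93e-06), with flask C the lowest. Car10, a carbonic anhydrase-related gene, was at 9764, 9149.7 and 17113 against 6.73, 4.99 and 3.51 (10.92 ± 0.29), with flask C the highest. In the other direction, 909 genes were read in Lung only, 386 of them with no read in the flasks, and these are described with the lung cell types.

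Notch signaling, which represses neuroendocrine fate, was represented by fewer receptor reads and more of an inhibitory ligand. Of 14 Notch pathway genes tested, 3 were higher and 10 lower, with a median of -3.10. Notch1 was at 105, 110.4 and 33.3 in the flasks and 6869, 4346 and 4914 in Lung (log2 fold change -6.16 ± 0.44, adjusted p = 5.54e-06), and Notch2 (-8.42 ± 0.13), Notch3 (-3.47 ± 0.16) and Notch4 (-3.21 ± 0.12) were lower too. Dll3, an inhibitory ligand and a drug target in SCLC, was at 812, 750.3 and 493 against 0.747, 0.997 and 1.17, which were 3 reads in all, a ratio of 724 (95% counting interval 248 to 3513). Jag2 (2.01 ± 0.09), a ligand, and Hes5 (3.83 ± 0.66; adjusted p = 0.0141 in limma with a pseudocount of 0.1), a target, were the other genes higher. Dll1 did not pass the test (-0.16 ± 0.27). The direction was not the same against 46LCNEC_cell, a cultured large cell neuroendocrine carcinoma line. There, 9 of 14 Notch pathway genes were higher in 57SCLC_cell and 4 lower (median 3.04). The part of lung cell composition in the values against Lung was not tested.

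Within the Myc family, Mycl stood far above the rest. SCLC carries recurrent gains of one or another MYC family gene, and MYCL is the member first described in that cancer. Mycl, at chr4:122889408-122896282 of GRCm39 on the plus strand, had 91752, 89595 and 79997 normalized counts in the flasks and 508, 723 and 489 in Lung (log2 fold change 7.27 ± 0.15, adjusted p = 1.53e-08). No flask came near any lung. Myc (93.8, 109.8 and 65.7 against 434, 485 and 409.7; -2.32 ± 0.21) and Mycn (-4.86 ± 0.30) were lower, as was their partner Max (-1.25 ± 0.07), while Mxd3, an antagonist gene expressed in dividing cells, was higher (4.78 ± 0.24) and Mxd1 did not pass the test (-0.48 ± 0.13). Of the 10 genes, 2 were higher and 4 lower (3 without flask C and under each other scaling or tool run). These numbers are near the 21.1% and 32.7% of all genes tested. The median (-0.12) changed sign without flask C (0.026) and with library size or upper quartile scaling.

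Mycl was not alone on its chromosome segment. This region was chosen for description after its values had been seen. Between 400 kb before and 930 kb after the start of Mycl lay 18 protein-coding genes that were tested, of which 16 were higher in the flasks than in Lung and 2 lower, the median log2 fold change being 5.12. In the rest of a window of 3000 kb on either side, 11 of 32 were higher and 7 lower (median 0.52). Cap1, an actin regulator gene, rose from 7679, 8064 and 8906 to 135120, 134559 and 142336 (log2 fold change 4.07 ± 0.10, adjusted p = 2.82e-08), and 6 of the 10 most highly read up-regulated genes of the whole comparison (Cap1, Macf1, Mycl, Rragc, Akirin1 and Trit1) came from this segment. Trit1 (5.91 ± 0.20), which lies next to Mycl and encodes a tRNA-modifying enzyme, Rragc (4.86 ± 0.07), which encodes an amino acid-sensing GTPase of the mTORC1 pathway, Akirin1 (5.59 ± 0.08) and Macf1 (2.35 ± 0.15), a cytoskeletal linker gene, belong to the named set. The exceptions inside were Hpcal4 (-1.78 ± 0.25) and the Notch target gene Heyl (-6.29 ± 0.19). The nearest tested protein-coding genes beyond the segment were Rlf, 1817 kb before the start of Mycl (0.47, not called), and Utp11, 1698 kb after it (-1.31). Against 46LCNEC_cell, a large cell neuroendocrine carcinoma line of the same series, 17 of the 18 were higher in 57SCLC_cell (median 4.09), and against subcutaneous tumors grown from 57SCLC cells none was higher and 1 lower (median -0.09). DNA copy number was not measured here.

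**Figure D2:**
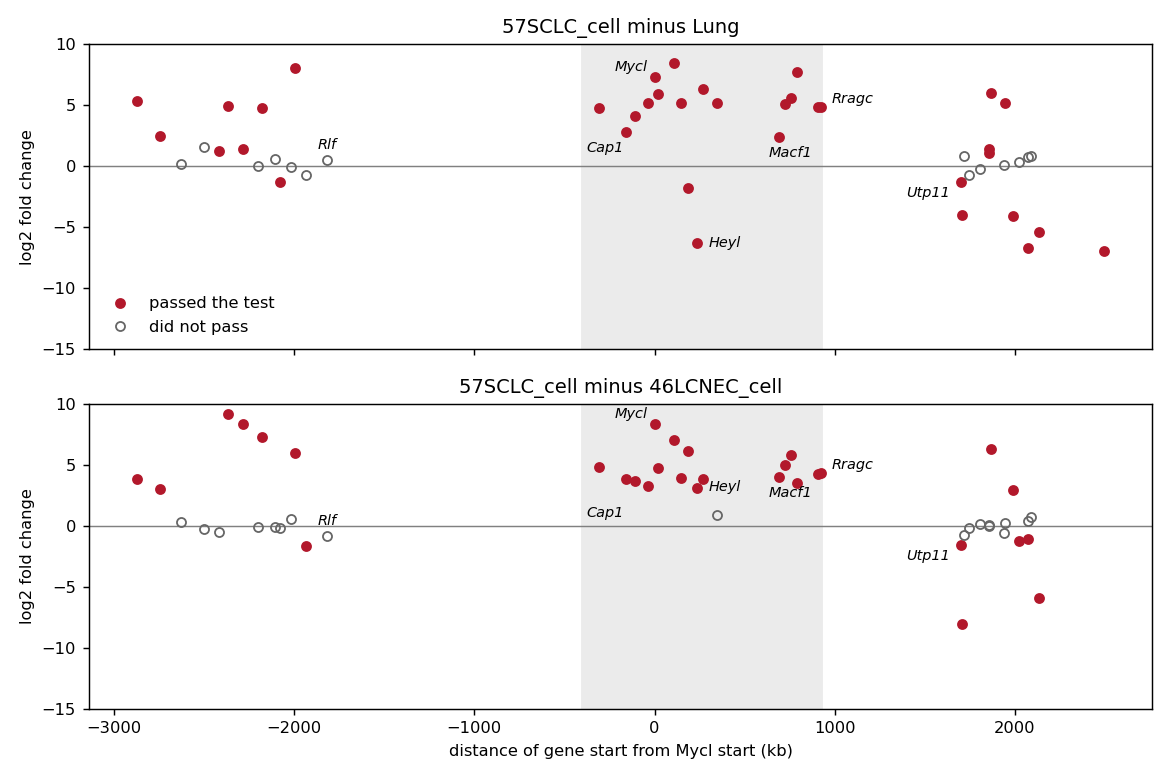
Log2 fold change of 57SCLC_cell minus Lung (upper panel) and minus 46LCNEC_cell (lower panel) for protein-coding genes by distance of the gene start from the Mycl start, in kb along the chromosome. Filled points passed the test, open points did not, and shading marks the 400 kb before to 930 kb after Mycl, where 16 of 18 genes in the upper panel and 17 of 18 in the lower were higher in 57SCLC_cell.

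Of 11 genes of E2F factors, their dimer partners and RB relatives, 7 were higher and none lower, with a median of 2.76. E2f1, the first activator E2F to be described, was at 4529, 4052 and 3469 in the flasks and 450.0, 630.3 and 569 in Lung (log2 fold change 2.87 ± 0.15, adjusted p = 8.48e-07). E2f2 (3.01 ± 0.18) and E2f3 (2.76 ± 0.11) were higher, and the largest difference was that of E2f8 (5.48 ± 0.16), an atypical repressor itself induced in S phase. E2f4, whose protein binds p130 and p107 in resting cells, did not differ beyond its error (0.00 ± 0.10), and there was no call for Tfdp2 (-0.40 ± 0.07), a dimer partner gene.

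Most DNA replication genes and all mitosis genes listed were higher in the flasks. Of 27 replication genes, 25 were higher and none lower (median 3.25), and of 25 mitosis and spindle checkpoint genes all 25 were higher (median 5.03), against the 21.1% of all genes tested. Mcm2, which encodes a subunit of the replicative helicase, was at 8801, 8951 and 7117 against 434, 478 and 399 (log2 fold change 4.24 ± 0.11, adjusted p = 3.59e-08), and Mcm3 (2.70 ± 0.11), Mcm4 (2.15 ± 0.09), Mcm5 (3.95 ± 0.12), Mcm6 (4.12 ± 0.13) and Mcm7 (2.89 ± 0.12), which encode the other subunits, moved with it. Rrm2, which encodes the regulated subunit of ribonucleotide reductase, had the largest difference of the list (4.88 ± 0.18). Gins4 (0.73 ± 0.08) and Orc1 (0.94 ± 0.27) fell short of 2-fold. Mki67, the gene of the Ki-67 antigen, was at 23704, 27249 and 26812 in the flasks and 639, 732 and 613 in Lung (log2 fold change 5.29 ± 0.10, adjusted p = 9.73e-09), and in the mitosis list the values ran from Mad2l1 (3.68 ± 0.11), a checkpoint gene, to Ccnb1 (7.08 ± 0.19), which encodes cyclin B1, with Cdk1 (5.76 ± 0.22), its kinase, Ccnb2 (4.51 ± 0.13) and Cdc20 (5.0 ± 0.18), which encodes an activator of the anaphase-promoting complex, between them. More dividing cells and more RNA per cell cannot be told apart in these bulk samples.

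The RB and E2F pathway acts through short elements in promoters. Promoters of 6 of these genes are shown as examples, picked because they hold the letters given below. RefSeq promoter sequence (GRCm38.p6, the 250 bases before the start of each gene) was searched on both strands. The letters were TTTCCCGC, TTTGGCGC, TTTCGCGC and TTTGCCGC for E2F sites, TTTGAA for the CHR element of G2/M genes, and CCAAT, the NF-Y box. The 3 helicase subunit promoters are shown with E2F letters in capitals (overlapping matches run together in Mcm5 and Mcm6, and in Mcm7 the letters are on the other strand), at chr8:75109316-75109403 on the plus strand, chr1:128359768-128359855 on the minus strand and chr5:138172001-138172088 on the minus strand.
Mcm5: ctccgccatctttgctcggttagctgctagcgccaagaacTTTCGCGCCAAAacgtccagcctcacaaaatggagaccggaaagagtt
Mcm6: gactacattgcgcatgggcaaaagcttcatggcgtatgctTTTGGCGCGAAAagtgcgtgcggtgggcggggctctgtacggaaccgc
Mcm7: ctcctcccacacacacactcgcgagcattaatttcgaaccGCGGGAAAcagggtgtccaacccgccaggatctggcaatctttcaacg

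The 3 mitotic promoters are the 120 bases next to the start, with CCAAT, its reverse ATTGG and TTTGAA in capitals, at chr9:70421555-70421674, chr4:118437344-118437463 and chr10:69352913-69353032, all on the minus strand.
Ccnb2: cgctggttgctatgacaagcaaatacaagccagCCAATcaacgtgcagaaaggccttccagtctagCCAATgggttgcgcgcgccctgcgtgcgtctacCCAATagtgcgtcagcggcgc
Cdc20: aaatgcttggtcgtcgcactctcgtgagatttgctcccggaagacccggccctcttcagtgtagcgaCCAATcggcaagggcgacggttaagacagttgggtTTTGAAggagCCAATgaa
Cdk1: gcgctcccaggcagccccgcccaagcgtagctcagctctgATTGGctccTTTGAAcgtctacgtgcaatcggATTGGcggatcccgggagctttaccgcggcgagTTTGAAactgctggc

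The E2F letters were present in the window of 8 of the 22 replication genes found in the table (36.4%), in 1 of 20 mitosis genes (5.0%), in 3.35% of the 12795 tested genes found and in 2.16% of all 27025 symbols. TTTGAA was held by 4 of 22 (18.2%), 7 of 20 (35%), 13.6% and 18.3%, and CCAAT by 15 of 22 (68.2%), 16 of 20 (80.0%), 39.3% and 37.5% respectively. Of the genes shown, Mcm5, Mcm6 and Mcm7 rose by 3.95, 4.12 and 2.89 and Ccnb2, Cdc20 and Cdk1 by 4.51, 5.0 and 5.76 on the log2 scale. Mcm2 and Mcm3, also helicase subunit genes, had windows without E2F letters. A match of letters is a description and not evidence of binding.

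Among the genes that control entry into S phase, the D cyclins were lower. In RB-intact cells cyclin D with CDK4 or CDK6 inactivates RB, and p16, encoded with p19ARF by Cdkn2a, blocks those kinases. Cdkn2a was at 3210.2, 3152 and 3100.3 in the flasks and 185, 214 and 197 in Lung (log2 fold change 3.99 ± 0.09, adjusted p = 1.59e-08). Ccnd1 fell from 3199.9, 3244 and 3373 to 13.1, 12.7 and 24.5 (log2 fold change -7.59 ± 0.24, adjusted p = 7.44e-08). Ccnd2 had 4279, 4973 and 4604 counts in Lung and no read in any flask, at least 8329.6-fold lower, Ccnd3 was lower (-3.01 ± 0.14), and Cdk6 went from 2765, 2642 and 2879.7 to 0.545, 1.2 and 0.521 (-10.64 ± 0.21). Cdk4 (1.89 ± 0.11) and Cdk2 (1.51 ± 0.08), the other kinase genes of the list, were higher, as were Ccne1, which encodes the cyclin that acts after RB (898, 854 and 936 against 41.9, 56.8 and 42.1; 4.24 ± 0.16), and Cdkn2c (2.71 ± 0.14), an E2F-responsive inhibitor gene. In all, 9 of 15 genes were higher (8 without flask C) and 5 lower, the fifth being Cdkn2b (-2.67 ± 0.13). The number of lower genes is near the share of all genes tested (32.7%), and that of higher genes is above it (21.1%). Cdkn1b did not pass the test (0.77 ± 0.11).

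**Figure D3:**
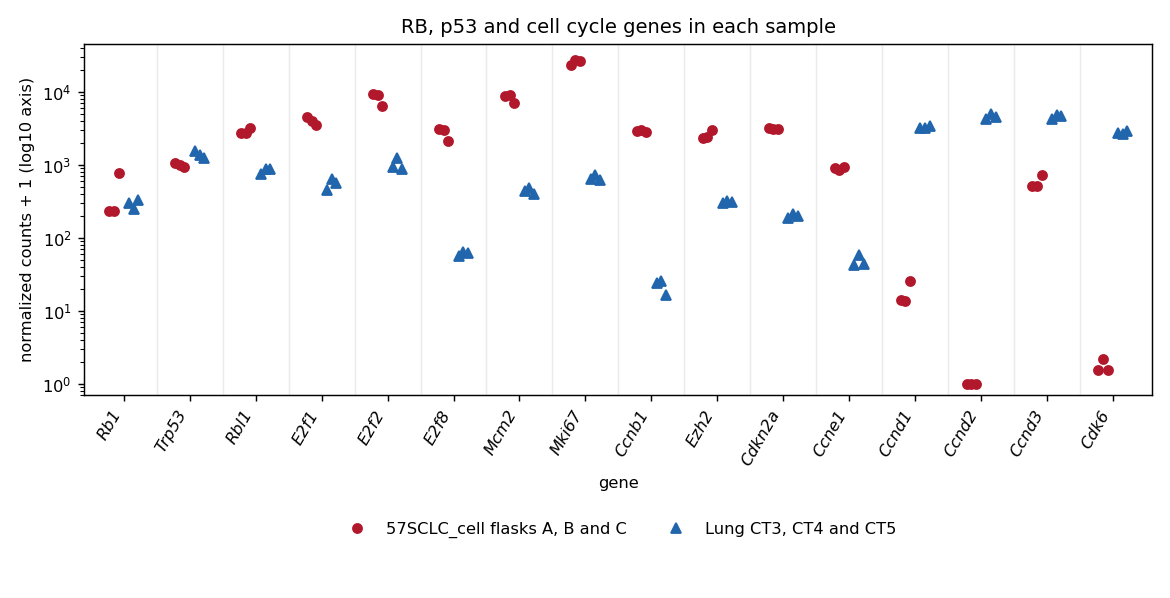
Normalized counts plus 1 on a log10 axis for 16 genes of the RB pathway, the p53 pathway and the cell cycle, with one point per sample (circles, flasks A, B and C of 57SCLC_cell; triangles, Lung CT3, CT4 and CT5). Rb1 overlaps between groups, Ccnd1, Ccnd2, Ccnd3, Cdk6 and Trp53 lie lower in the flasks, and the remaining 10 genes lie higher. The groups do not overlap for 15406 of the 18467 genes tested.

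Genes that p53 activates were lower more often than higher, with 9 of 20 lower, 2 higher and a median of -0.93, beside 32.7% and 21.1% of all genes tested. Ccng1 (-2.36 ± 0.09), Eda2r (-2.83 ± 0.27) and Phlda3 (-2.93 ± 0.09), which are standard p53 targets, were lower. Fas, a death receptor gene, had no read in the flasks against 1495, 1402 and 1408 in Lung (at least 2588-fold lower). Mdm2, which encodes the ligase that degrades p53, did not pass the test (3386, 3299 and 2802 against 2872, 2623 and 3039; 0.15 ± 0.10), nor did Trp53inp1 (-0.43 ± 0.12). Cdkn1a, which encodes p21, was higher (3509, 3402 and 3339.9 against 1511, 1796 and 1817; 1.00 ± 0.09), just at 2-fold and no longer so without flask A (0.99) or Lung CT3 (0.92), and Gtse1, a G2 and S phase gene, was higher by more (5.31 ± 0.19).

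Chromatin regulator genes were also higher more often than lower. Of 19 polycomb, DNA methylation and chromatin genes, 14 were higher and 1 lower (median 1.58). Ezh2, the histone H3 lysine methyltransferase of polycomb and an E2F target, was at 2309, 2387 and 2988 against 297, 314 and 304 (log2 fold change 3.05 ± 0.11, adjusted p = 1.41e-07), and Ezh1, its relative in resting cells, was the gene that fell (-1.88 ± 0.08). Uhrf1 (4.90 ± 0.18) and Dnmt1 (3.06 ± 0.06), which encode the maintenance arm of DNA methylation and Suz12 (1.51 ± 0.08), a polycomb subunit gene, were higher, while Eed, another subunit gene, stayed under 2-fold (0.47 ± 0.10).

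Genes of epithelial junctions and keratins were divided. Epcam, an epithelial adhesion gene, was higher (2.84 ± 0.11), as were Krt8 (2.20 ± 0.11; not called in a limma model of all 15 samples, adjusted p = 0.0282) and Krt18 (2.02 ± 0.11), keratins of simple epithelia, while Cdh1, the gene of E-cadherin, did not reach 2-fold (21931, 21734 and 17754 against 9697, 12251 and 12444; 0.84 ± 0.13). Cdh2, the gene of neural cadherin (5.43 ± 0.40) and Cldn6 (9.72 ± 0.33), a claudin gene, were higher, and Cldn3 did not pass the test (0.43 ± 0.14). Vim, the gene of vimentin, fell from 22223, 21163 and 23111 in Lung to 10.4, 16.3 and 18.8 in the flasks (log2 fold change -10.46 ± 0.20, adjusted p = 1.07e-08). Zeb1 (-10.04 ± 0.42), a repressor of epithelial genes, Krt19 (-7.69 ± 0.50) and Cldn4 (-1.74 ± 0.40; -1.61 to -1.86 and not called without any 1 of the lungs and with the filter in 2 samples) were lower. In all, 12 of 24 genes of epithelial junctions and keratins were higher and 9 lower, a share of lower genes near that of all genes tested. Vimentin and Zeb1 are also expressed by the stroma of lung, and their part in the values was not tested.

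Antigens used to target SCLC were split, with 7 of 13 higher and 5 lower, beside 21.1% and 32.7% of all genes tested. Ncam1, the gene of CD56, rose from 71, 79.8 and 77.3 to 4598, 4291 and 6449 (log2 fold change 6.03 ± 0.16, adjusted p = 3.31e-08). Dll3 and Sez6 are given above, and Cd276 (1.98 ± 0.13), a checkpoint ligand, and Cd24a (1.72 ± 0.14) were higher. Cd44 was lower, at 2.18, 2.41 and 2.61 against 5863, 5842 and 7103 (-10.84 ± 0.15), as were Cd274 (-4.82 ± 0.22), the gene of PD-L1, and Cd47 (-1.16 ± 0.09), the signal that restrains phagocytosis. B4galnt1 (-1.71 ± 0.11), which encodes a ganglioside synthase, and Gpc3 (-1.77 ± 0.38; -1.52 to -1.89 and not called without flask A, flask B or any 1 lung and with the filter in 2 samples) were the other genes that fell. Sstr2 was listed at 0 in all 6 samples.

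Markers of the cell types of the lung fell nearly without exception, which checked the label of the Lung samples. Lung held 301365 to 400776 normalized counts over the alveolar type 2 markers against 15347 to 16558 in the flasks, and of the 14 tested 13 were lower. Sftpc, the gene of surfactant protein C and the defining marker, was at 21.3, 15.7 and 16.2 in the flasks and 58062, 76025 and 85865 in Lung (log2 fold change -11.93 ± 0.17, adjusted p = 5.71e-09). Sftpb (-11.26 ± 0.17) and Abca3 (-2.13 ± 0.14), a lipid transporter gene of the surfactant organelle, were lower, Sftpd had no read in the flasks (at least 18909-fold lower), and Sftpa1 and Slc34a2 were among the 10 largest decreases of all. Slc26a9, a chloride transporter gene, was the one called higher, and made up most of the sum in the flasks (12038, 12106 and 11410 against 2731, 2824 and 3174; 2.03 ± 0.08). All 12 alveolar type 1 genes tested were lower, among them Ager (-8.43 ± 0.15) and Hopx (-13.64 ± 0.26), with a median of -7.96.

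Airway markers behaved likewise, although the lungs differed in airway gene reads. Scgb1a1, the secretoglobin of club cells, went from 151023, 219541 and 183536 in Lung to 8.18, 6.03 and 19.8 in the flasks (log2 fold change -14.01 ± 0.37, adjusted p = 3.45e-08), and 8 of 9 club cell genes were lower. Scgb3a1 in Lung ran 5427, 784 and 39.8 and Krt5, the basal cell keratin, 101, 1.99 and 0, both highest in CT3. Of 15 ciliated cell genes, 13 were lower, among them Foxj1, the master factor of motile cilia (427, 384 and 261 against 4686, 5706 and 3833; -3.74 ± 0.21). Mcidas, an activator of multiciliation, was higher (418, 411 and 301 against 59.8, 45.9 and 71.4; 2.66 ± 0.22).

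Endothelial genes were lower in 17 of 18 cases, with a median of -10.84, or -11.50 with genes that had no read in the flasks at their bound. Pecam1 (35.5, 35 and 42.7 against 28620.2, 26063 and 27973; -9.48 ± 0.10), Cdh5 (-13.67 ± 0.19) and Kdr, with 1 read in the flasks (a ratio of Lung to flasks of 75719 (95% counting interval 13589 to 2990810)), define the type. Cldn5, a junction gene of capillaries, and Calcrl, a peptide receptor gene, were among the 10 largest decreases of the comparison. Vwf, the gene of von Willebrand factor, was the exception: it was read at 7072, 7389 and 7724 in the flasks and 14955, 8101 and 8172 in Lung (log2 fold change -0.43 ± 0.23, adjusted p = 0.116), and made up almost all of the 7246 to 7906 counts that the endothelial list had in the flasks. In 46LCNEC_cell Vwf was at 30.4 ± 4.36 (SD, n = 3).

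Fibroblast and smooth muscle genes were lower in 18 of 19 cases (median -9.36, or -9.54 with bounds). Col1a1 (2.18, 1.81 and 4.17 against 2105, 3024 and 3349; -9.59 ± 0.29), Col3a1 (-11.04 ± 0.19) and Dcn, with 1 read in the flasks (a ratio of Lung to flasks of 13707 (95% counting interval 2459.5 to 541478)), define the type, and Fbln1, a matrix gene, did not pass the test (648, 619 and 765 against 507, 757 and 529; 0.20 ± 0.17). Inmt, an amine methyltransferase gene highly expressed in rodent lung, was the largest decrease of all, at 0, 0 and 1.04 against 78189, 84258 and 96150.3, a ratio of Lung to flasks of 229664 (95% counting interval 63577 to 1896420) from the 2 reads in the flasks. Macrophage and lymphocyte genes were lower in all 19 and all 19 tested, and red cell genes in all 5. The macrophage list summed to 348 to 382 counts in the flasks and 102712 to 133321 in Lung, and the lymphocyte list to 43.8 to 51.9 against 14331 to 18278. Lyz2, the lysozyme gene of myeloid and alveolar type 2 cells, fell from 79789.6, 91001 and 108582 to 18.5, 18.1 and 10.4 (-12.48 ± 0.22), and Ptprc, the gene of CD45, from 3891, 3560.5 and 3628 to 0, 0 and 0.521. All 7 mesothelial genes tested were lower. The Hbb and Hba genes have near-identical copies, so that reads of single copies are uncertain.

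**Figure D4:**
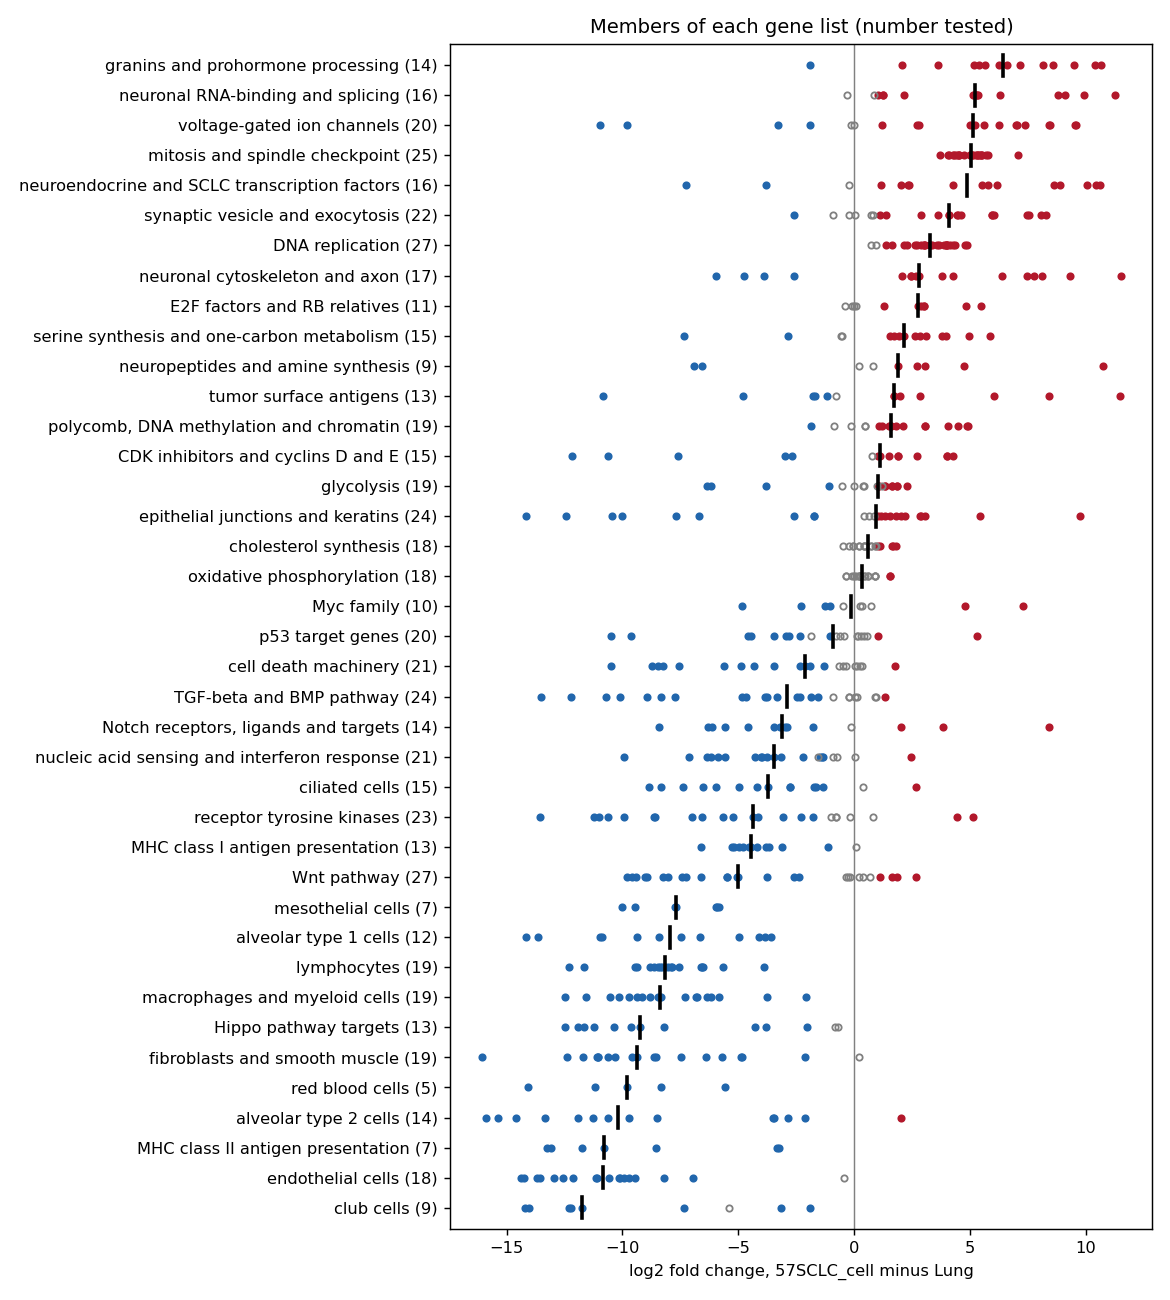
Log2 fold change of 57SCLC_cell minus Lung for every tested member of 39 gene lists, one point per gene (red, higher; blue, lower; open, did not pass the test), with the list median as a bar. The medians of the neuroendocrine and division lists lie above 0, up to 6.40, and those of the lung cell type lists lie below, down to -11.74 for club cells. Single members of both kinds of list lie on the other side of 0, such as Rest (-7.26) and Mcidas (2.66).

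MHC class I genes were lower in 12 of 13 cases and higher in none, with a median of -4.45. Low antigen presentation is a common trait of neuroendocrine lung cancer, and whether these values reflect it was not tested. H2-K1, a classical class I gene, was at 786, 871 and 1042 in the flasks and 26928, 11130.2 and 24785 in Lung (log2 fold change -4.45 ± 0.32, adjusted p = 5.54e-06), the 3 lungs ranging over more than 2-fold. H2-D1 (-3.82 ± 0.14) and Tap1 (-4.19 ± 0.12), which encodes a subunit of the peptide transporter, were lower. The smallest value was that of Nlrc5, which encodes the transactivator of class I genes (-6.60 ± 0.26), and Calr, a chaperone gene used by all cells, did not pass the test (0.06 ± 0.11). Class II genes were lower in all 7 tested, with 163 to 183 counts in the flasks against 46289 to 68448 in Lung. H2 genes share sequence, and how reads that match several of them were counted is not given in the sources used here. Class II is expressed by immune cells and alveolar type 2 cells in lung. The part of cell composition in the class I and class II values was not tested.

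Of 21 genes of nucleic acid sensing and the interferon response, 16 were lower and 1 higher. Cgas, which encodes the sensor of cytosolic DNA, was the one that rose (1231, 1251 and 938 against 235, 219 and 171; log2 fold change 2.45 ± 0.17, adjusted p = 3.86e-06), whereas Sting1, the gene of its adaptor, fell (68.7, 72.4 and 109 against 786, 748 and 668; -3.15 ± 0.20). Mavs (-1.38 ± 0.08), the adaptor gene of RNA sensing, and Tlr3 (-6.19 ± 0.19) were lower. Ifit3, an interferon-stimulated gene, had the largest decrease, with 3 reads in the flasks and a ratio of Lung to flasks of 2543 (95% counting interval 869.6 to 12336). Among cell death genes, 13 of 21 were lower and 1 higher. Bcl2, the anti-apoptotic gene often high in SCLC, was at 293, 283 and 346 against 1461, 1601 and 1548 (-2.32 ± 0.10), and Mcl1 was lower (-1.90 ± 0.12). Casp1 had no read in the flasks (at least 339-fold lower), and Bax did not pass the test (0.13 ± 0.10).

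Growth factor receptor genes were mostly lower. Of 23 receptor tyrosine kinase genes, 16 were lower (18 without flask C) and 2 higher. Egfr was at 7.09, 11.5 and 6.77 in the flasks, which were grown with EGF, against 780.3, 933 and 880.3 in Lung (log2 fold change -6.55 ± 0.23, adjusted p = 1.12e-07). Met, another epithelial receptor gene, had 1 read over the flasks against 2307, 2448 and 2602 counts in Lung (a ratio of Lung to flasks of 13148 (95% counting interval 2359 to 519404)), and Erbb3 stayed under 2-fold (0.80 ± 0.10). Ret, the receptor gene of GDNF ligands in neuroendocrine cells, rose from 288, 442 and 423 to 9059, 9258 and 6303 (log2 fold change 4.42 ± 0.21, adjusted p = 4.74e-07), and so did Ephb2 (5.14 ± 0.19). Kit, a receptor gene high in a part of human SCLC, stayed under 2-fold (-0.78 ± 0.08).

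Of 27 Wnt pathway genes, 17 were lower and 4 higher (median -5.02). Wnt2 (0, 0 and 0 against 754, 625 and 928), a ligand gene of lung mesenchyme, was at least 1387-fold lower, and Wnt7a (-8.05 ± 0.32) and Wnt5a (-2.39 ± 0.36) were lower. Wnt4 (1.11 ± 0.16; 0.94 and not called without Lung CT3), the receptor genes Fzd3 (1.85 ± 0.11) and Lgr4 (2.66 ± 0.09) and Notum (1.62 ± 0.19; adjusted p = 0.0515 in a limma model of all 15 samples), which encodes an enzyme that inactivates Wnt proteins, were higher. Of 24 TGF-beta and BMP genes, 16 were lower and 1 higher (2 without flask C and 3 with library size or upper quartile scaling), with Tgfb1 (-3.85 ± 0.10), Tgfbr2 (-12.23 ± 0.33) and Acvrl1 (-13.53 ± 0.46), a receptor gene of endothelium, lower, and Id2, a BMP-induced inhibitor of differentiation factors, higher (1.31 ± 0.12). Hippo pathway genes were lower in 11 of 13 cases. Yap1, the coactivator gene that is low in neuroendocrine SCLC, was at 344, 384 and 616 against 5804, 6129.6 and 6208 (log2 fold change -3.80 ± 0.20, adjusted p = 9.77e-07), its partner Wwtr1 lower still (-11.92 ± 0.37), and the target gene Ccn2 had no read in the flasks (at least 11038-fold lower). Tead1 (-0.72 ± 0.10) and Tead3 (-0.83 ± 0.11) did not pass the test.

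Of the 15 genes of serine synthesis and one-carbon metabolism, which feeds nucleotide synthesis, 11 were higher and 2 lower (median 2.13). Phgdh (624, 629.6 and 855 against 139.8, 171 and 166; log2 fold change 2.13 ± 0.16, adjusted p = 7.40e-06), Psat1 (4.94 ± 0.09) and Psph (1.54 ± 0.16) encode the enzymes of serine synthesis. The largest difference of the list was that of Aldh1l2 (5.86 ± 0.20), a mitochondrial folate enzyme gene. Aldh1l1, its cytosolic counterpart, was lower (-2.85 ± 0.21), as was Mthfd2l, with a ratio of Lung to flasks of 428 (95% counting interval 146 to 2082). Glycolysis genes were higher in 9 of 19 cases and lower in 4, or 7 and 5 without flask C. Hk2, a hexokinase gene, was lower (28.9, 18.1 and 317 against 834, 817 and 753; -3.82 ± 0.94), a call lost when either flask A, flask B or any lung was left out, and Ldhb (-6.20 ± 0.26) and the glucose transporter gene Slc2a3 (-6.35 ± 0.25) were among the genes that fell. Gapdh had the largest increase (2.28 ± 0.13), a value that is uncertain because the gene has many processed pseudogenes. Cholesterol synthesis genes were higher in 5 of 18 cases, and in 2 without flask C. Oxidative phosphorylation genes were higher in 2 of 18 (5 with library size or upper quartile scaling). Neither list had a lower gene, beside 21.1% higher and 32.7% lower of all genes tested.

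Of 22 tested genes known to respond to hypoxia, 14 were over 2-fold higher in flask C than in both A and B, a small part of all the genes that set it apart. These genes and lists were chosen after their values had been seen. Hk2 was at 28.9, 18.1 and 317, Stc1, which encodes stanniocalcin, at 7.09, 4.82 and 137, and Bhlhe40, a repressor gene induced by low oxygen, at 43.1, 35 and 352 in A, B and C. Ldha (3015, 3140.4 and 11893) and the lactate exporter gene Slc16a3 (1516, 1584 and 8267) were also highest in C. On the NRF2 list, of genes induced by oxidative stress, 3 of 14 were over 2-fold lower in flask C, among them Srxn1, at 1064, 1145 and 315. Against Lung, 3 of the 22 hypoxia-inducible genes were higher and 3 lower with all flasks, beside 21.1% and 32.7% of all genes tested. Without flask C 3 were higher and 8 lower, beside 20.4% and 33.4%. Oxygen and cell density were not recorded in the sources used here, and their part in these values was not tested.

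**Figure D5:**
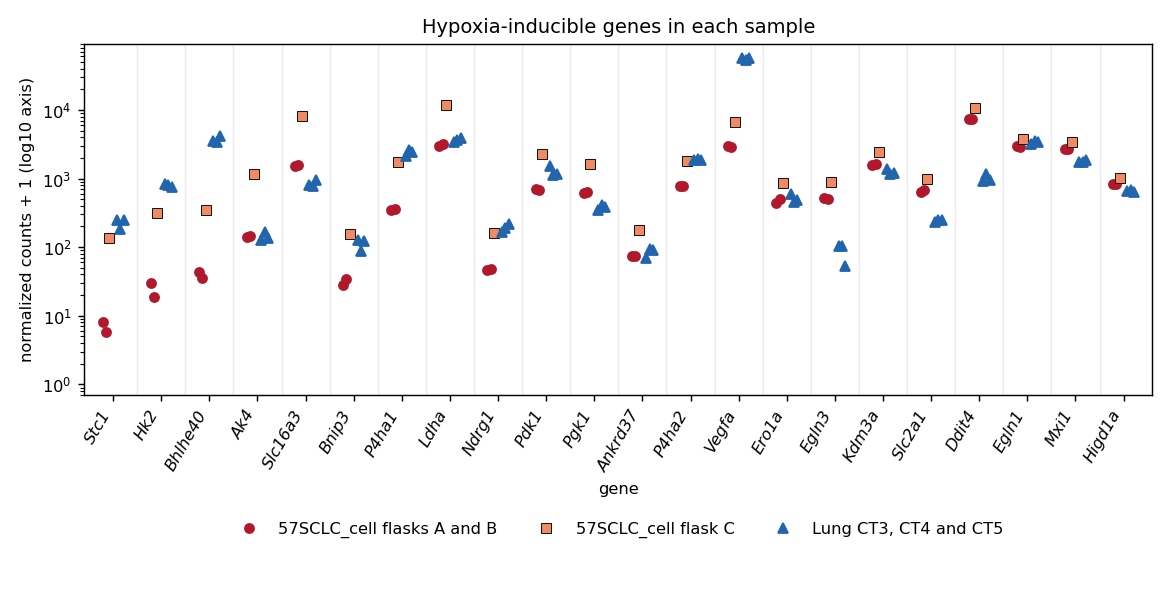
Normalized counts plus 1 on a log10 axis for the 22 tested hypoxia-inducible genes, ordered by the ratio of flask C to the mean of A and B, with one point per sample (circles, flasks A and B; squares, flask C; triangles, Lung CT3, CT4 and CT5). Flask C lies over 2-fold above both other flasks for 14 genes.

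Whether the difference from Lung was shared by another cultured tumor line was examined directly between 57SCLC_cell and 46LCNEC_cell. The 46LCNEC_cell samples were 3 dishes at passage 17 of an adherent line from a mouse that had received Ad-CMVcre. Of 16920 genes tested, 4043 (23.9%) were higher and 3756 (22.2%) lower in 57SCLC_cell. None of the 25 mitosis genes passed the test, and of 27 replication genes 3 were lower in 57SCLC_cell and none higher. Among the neuroendocrine lists, 11 of 14 granin genes, 19 of 22 synaptic genes and 13 of 16 neuronal RNA-binding genes were higher in 57SCLC_cell and none lower, while the lists of transcription factors (11 of 16 higher and 2 lower), neuropeptides and amine synthesis (5 of 10 and 3), channels (16 of 18 and 1) and cytoskeleton (14 of 17 and 2) had members in both directions. Chga was at 4.23 ± 2.20 (SD, n = 3) in 46LCNEC_cell, so the difference was 10.91 ± 0.28 (adjusted p = 1.93e-08), and that of Insm1 was 12.53 ± 0.48 (adjusted p = 1.43e-07). Mycl was at 273 ± 53.8 in 46LCNEC_cell (difference 8.33 ± 0.14, adjusted p = 4.15e-09). Lower in 57SCLC_cell were 12 of 13 Hippo pathway genes, 14 of 19 glycolysis genes, 12 of 18 cholesterol synthesis genes and 13 of 20 cell death genes. Yap1 differed by -3.75 ± 0.20 and Vim by -12.73 ± 0.19.

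The same cells grown as tumors were available as 57SCLC_allo, subcutaneous allografts of passage-11 cells in immunocompetent QKO mice. Of 17078 genes tested, 391 (2.29%) were higher and 2451 (14.4%) lower in 57SCLC_cell. The tumors had 9480244 to 20378892 counted reads, fewer than the flasks. Lower were 17 of 18 endothelial genes, 16 of 18 fibroblast genes, 15 of 15 macrophage genes and 13 of 14 lymphocyte genes, cell types that a host can supply. No gene of the lists of neuronal RNA-binding or of E2F factors and RB relatives passed the test, and of 14 granin genes 2 were higher and 1 lower. Chga (difference -0.31 ± 0.10, adjusted p = 0.0309) and Mycl (-0.58 ± 0.17, adjusted p = 0.0268) did not reach 2-fold. Dll3 was lower in culture (812, 750.3 and 493 in the flasks against 2019 ± 246 in the tumors; difference -1.58 ± 0.19, adjusted p = 0.00027), as were 9 of 12 MHC class I genes and 13 of 22 hypoxia-inducible genes. The part of host cells in the values of these cell type lists and of class I was not tested. Ttr, read in the flasks and not in Lung, was at 50.6 ± 19.2 in the tumors (difference 5.71 ± 0.32), and Igfbp5, an insulin-like growth factor binding protein gene and the most highly read up-regulated gene against Lung (153560, 146352 and 140787 against 11213, 15084 and 13160), was at 31692 ± 2263 (difference 2.21 ± 0.15).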

How the data were processed

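RNA-seq was done on poly-A selected RNA of 15 mouse samples, of which 6 were compared here. Per the paper's methods, the authors aligned paired reads to GRCm39 with Rbowtie2, counted reads per gene with featureCounts of Rsubread on GENCODE M27, and normalized with DESeq2. Bowtie2 does not split reads over introns, so reads across exon junctions could go uncounted. The strand setting and the treatment of reads that match several places are not given in the sources used here, so overlapping genes, antisense genes and near-identical copies are uncertain. The deposited values were signal in the sense of counts divided by 1 size factor per sample. Every value was a whole multiple of the value of 1 read to within 0.01 reads (100% of values in each sample), which gave back the reads.

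Genes that reached 10 normalized counts in 3 or more of the 6 samples were tested with limma 3.58.1 in R 4.3.3. Values were first transformed as log2(value + 1), the variance was moderated towards a trend on mean expression, and p-values were adjusted by Benjamini-Hochberg. To pass the test, a gene needed an adjusted p no greater than 0.01 and a change of 2-fold or more. Folds are on the log2(value + 1) scale, which understates those of low genes. For a gene with no read in a group, the fold is a lower bound against a floor of 3 reads over that group, and with 1 to 3 reads it is a ratio of reads scaled by the summed depth of each group with an exact 95% interval for counting error only. edgeR 4.0.16, DESeq2 1.42.0 and other scalings, filters and samples were alternatives. The fits were tested on simulated data.

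Groups came from GEO's labels. Gene lists were written from background knowledge, and they and the comparison were chosen with earlier results of these data known. Named were the deleted suppressors, the 10 largest changes with at least 50 normalized counts in each sample of the higher group and the 10 most highly read genes called in each direction, and, per list, the first 6 members, the extremes and the members against the majority. Outside that rule, and chosen after their values were seen, are Pomc, Ddc, Slc18a1, Srrm4, Rbfox1, Onecut2, Sox11, Prox1, Nkx2-1, Nfib, Orc1, Cdc20, Cdk2, Cdk4, Krt5, Krt8, Krt18, Casp1, Tap1, Rn18s-rs5, the genes listed at 0, the segment around Mycl, and the hypoxia and NRF2 lists. Coordinates are of GENCODE release 39 and promoter sequence is of RefSeq (GRCm38.p6). Some genes are not reported here.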

Additional observations from a re-analysis of the deposited data

Results flagged for a closer look

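The difference from Lung can be compared between 57SCLC_cell and other groups only through direct tests, in which the Lung samples cancel out. In such tests with limma, 4043 genes were higher and 3756 lower in 57SCLC_cell than in 46LCNEC_cell. The named genes that differed between those lines were Chga (log2 fold change 10.91), Insm1 (12.53), Mycl (8.33), Yap1 (-3.75) and Vim (-12.73). Between 57SCLC_cell and 57SCLC_allo, 391 genes were higher and 2451 lower in culture, and the named genes that differed were Dll3 (-1.58), Ttr (5.71) and Igfbp5 (2.21). Groups of 3 were too small for a test of single outlying samples, and flask C is described in the report.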

How the results depend on the processing

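No paired analysis was possible between 57SCLC_cell and Lung because the labels of the flasks and lungs share no number. The flasks and the 46LCNEC_cell dishes share only the letters A, B and C, their same-letter deviations correlated at 0.092, -0.084 and -0.006, and a replicate block gave 4041 higher and 3756 lower genes, 7797 in all, against 7799. The numbers of all genes higher and lower against Lung stayed within 1.5 times under all alternatives but 2: a test against a 2-fold change (2563 higher), and leaving out 1 lung with the filter kept at 3 samples, which no longer tests genes read in Lung alone (lower genes 3307 to 6113 over all left-out samples, higher genes 3017 to 3811). With a filter in 2 samples the ranges were 3730 to 3897 higher and 5941 to 6346 lower. Against 46LCNEC_cell, with 1 sample left out, the totals ran from 6301 to 6648, with 2632 to 4017 higher and 2432 to 3887 lower. Against 57SCLC_allo a test against 2-fold left 82 higher and 1618 lower (1700), and leaving out a sample gave 250 to 351 higher and 954 to 2557 lower (1204 to 2908). Scaling by library size or upper quartile moved the median of all genes by 0.24 and 0.16 (log2), giving 4791 higher and 5536 lower, or 4439 and 5684. edgeR and DESeq2 called 4136 and 3974 higher. Genes read in the flasks only numbered 291 with a floor of 10 reads, 236 with a minimum of 20 counts and 135 without flask C. With library size or upper quartile scaling 5 oxidative phosphorylation genes and 3 TGF-beta and BMP genes were higher, and with DESeq2 5 hypoxia-inducible genes. Without flask C the called members moved to 2 lower for synaptic genes, 2 higher for cholesterol synthesis, 2 higher for TGF-beta and BMP, and 8 lower for hypoxia-inducible genes. A limma model of all 15 samples lost the calls of Cdkn1a, Cldn4, Krt8, Nkx2-1, Notum, Nova1 and Wnt4 (adjusted p from 0.0134 to 0.346). Of 210 named genes, 187 kept their direction and side of the threshold under every alternative run, 15 lost a call under at least 1 and 4 gained one. The sign reversed for 4 genes without a call. Leaving out 1 sample gave log2 fold changes of -0.31 (without flask C) to 0.56 for Rb1, -0.34 to 0.18 (without flask C) for Dll1, -0.043 (without Lung CT3) to 0.15 for Calr, and -0.071 (without flask A) to 0.084 for E2f4, with -0.0086 without flask B and -0.052 without Lung CT5. Dll1 was at 0.069 with library size scaling.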
